A study of Mus musculus with 23 samples.

Results

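Carboxylesterases are hydrolases that split esters, amides and thioesters. Their genes, Ces in the mouse, were followed here in liver RNA of 3 genotypes. The 10 genes described are *Ces1c*, *Ces1d*, *Ces1e*, *Ces1f*, *Ces1g*, *Ces2a*, *Ces2c*, *Ces2e*, *Ces3a* and *Ces3b*. They were matched by gene symbol among the 27179 genes of the count table, which lists 20 Ces genes in all. The matching used no measured value, but the 10 were chosen with earlier results of these data known. The livers came from 15 female mice with the genotypes that the study calls Ctrl, ABpIF/+ and ABpIF/F. All 15 mice carried Alb-Cre, which drives Cre recombinase from the albumin promoter and so acts in hepatocytes and cells derived from albumin-expressing precursors, and the floxed tumor suppressor allele *Trp53* flx/flx. The 6 Ctrl mice had wild-type *Braf* and *Icmt* flx/+. The 6 ABpIF/+ mice had the Cre-activated oncogenic allele BrafCA, which encodes *Braf* V600E, with *Icmt* flx/+, and the 3 ABpIF/F mice had the same BrafCA allele with *Icmt* flx/flx. The genotype labels of the ABpI mice write the *Braf* locus as +/+, whereas the description of the series gives it as BrafCA/+. *Icmt* encodes the methyltransferase that finishes the processing of prenylated proteins such as RAS. Loss of *Trp53* was thus common to all groups, and tissue free of visible tumors was taken. The labels give no ages, and the study's mice were not all of the same age. The 23 listed samples name these 15 mice, 8 of them by 2 samples, and the table holds 1 column per mouse. By group, 7 samples name the 6 Ctrl mice, 10 the 6 ABpIF/+ mice and 6 the 3 ABpIF/F mice. Mice named by 2 samples were thus unevenly spread over the genotypes, and how their columns were formed is not stated.

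In mammals most carboxylesterases sit in the lumen of the endoplasmic reticulum of hepatocytes and enterocytes, where they hydrolyze drugs, environmental esters and neutral lipids. Proteins of this lumen usually carry a short signal at their carboxyl end that KDEL receptors recognize and return from the Golgi apparatus, and a carboxylesterase without this signal is secreted into plasma. In hepatocytes, lipid hydrolysis by Ces1 enzymes is linked to the assembly of very-low-density lipoproteins (VLDL) and to lipid droplet turnover. Mice have many more Ces genes than humans, in tandem arrays on chromosome 8.

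The libraries held 24742910 to 32262649 counts per mouse. The values below are CPM, counts scaled to library size after normalization by edgeR's TMM method, and CPM per kb of exon wherever different genes are compared. The targeted gene *Icmt* had 27.8 to 34.7 CPM in Ctrl, 27.8 to 37.4 in ABpIF/+ and 15.2 to 16.6 in ABpIF/F livers (ABpIF/F vs Ctrl, log2 fold change -0.96, adjusted p = 8.5e-06 by edgeR), so the lowest values were in the mice with 2 floxed alleles. The 6 hepatocyte markers, *Alb*, *Ttr*, *Apob*, *Serpina1c*, *Cps1* and *Hnf4a*, were detected in all groups and 0 of 6 were called in any comparison. Their summed level, mostly *Alb*, was 93529 to 124157 CPM in Ctrl, 144066 to 202681 in ABpIF/+ and 110393 to 198798 in ABpIF/F livers. The single markers differed in direction. *Alb* averaged 89159 CPM in Ctrl, 153783 in ABpIF/+ and 144110 in ABpIF/F livers, whereas *Ttr* averaged 4216, 2399 and 3419 CPM and *Cps1* 4225, 2768 and 2063 CPM. *Ttr* did not overlap between Ctrl and ABpIF/+ (log2 fold change -0.81, adjusted p = 0.0043 by edgeR), nor did *Cps1* between Ctrl and ABpIF/F (-1.03, adjusted p = 0.011). In the other direction, *Alb* (0.79, adjusted p = 0.0017 by edgeR), *Hnf4a* (0.51, 0.0079) and *Serpina1c* (0.58, 0.018) did not overlap between Ctrl and ABpIF/+. Of the genes averaging 5 CPM or more, 32.1% did not overlap in ABpIF/+ and 33.1% in ABpIF/F vs Ctrl. The part of these shifts in the Ces values was not tested. In bulk liver, fewer cells of a type and less RNA per cell cannot be told apart. The labels do not say that the mice were from separate litters, and p-values measure the spread between these mice. The strain labels name a B6 background with 129P2-derived alleles for all mice. For BG3 and all ABpI mice the label (B6[ICMT ...) adds a cross to a line that carries *Trp53*, *Braf* and *Icmt* alleles, which the label of the other 5 Ctrl mice (B6-ICMT ...) does not name.

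The ends of the coding sequences show which products may stay in the endoplasmic reticulum. The transcripts are from GENCODE M21 on GRCm38, where those tagged as principal were preferred and then the longest coding sequence. Each line gives the last 8 codons before the stop codon, 5′ to 3′, with the last 4 codons in capitals.
Ces1c: cctactgaacacACAGAACACAAA
Ces1d: tcccacagggaaCATGTTGAGCTC
Ces1e: ctgccgacagaaCACACTGAGCTG
Ces1f: ccccagccatacCACAATGAGCTG
Ces1g: tcccatagggaaCATGTTGAACTG
Ces2a: tctcaggacaagCATGCAGAGCTG
Ces2c: tctcaggacaagCACAGGGAGCTT
Ces2e: tctcaggagaggCACAAAGAGTTG
Ces3a: agcaggaaagttCCAGAGGAGCTC
Ces3b: agcaggaaagttCCAGAGGAGCTC
In 9 of the 10 genes the last codons were a glutamate codon followed by a leucine codon, the pair with which coding sequences of many luminal proteins end. *Ces1c*, which encodes the main carboxylesterase of mouse plasma, ended in a histidine and a lysine codon instead. Among the 9 other Ces genes with a coding sequence, 4 had an end of the first kind, and *Ces1b*, the neighbor of *Ces1c*, was among the 5 that had not. *Ces3a* and *Ces3b* ended in the same 8 codons, and over 1713 aligned coding bases they were 95.3% identical. The next closest pairs of the 10 were *Ces2c* with *Ces2e* (84.0%), *Ces2a* with *Ces2e* (83.3%), *Ces2a* with *Ces2c* (82.6%) and *Ces1d* with *Ces1g* (81.5%), whereas Ces1 and Ces3 genes were 62.2% to 63.8% identical. Of the 150-base stretches in its exons, *Ces3a* shared 1.56% with *Ces3b*, and *Ces2c* shared 2.84% with the pseudogene *Ces2d-ps*. Reads from these stretches could be split between the genes or left out, and the other 7 genes shared none.

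Promoter sequences were available for 7 of the 10 genes from RefSeq (GRCm38.p6). The 150 bases before the start site are given, 5′ to 3′ on the gene's strand, for *Ces1e* and *Ces3b*, whose transcripts were much lower in ABpIF/+ livers, and for the related tandem genes *Ces2a* and *Ces2e*, which differed in direction. Capitals mark matches on either strand to the TATA box letters TATAAA, to the box CCAAT, to the letters GTTAAT found in sites of the hepatocyte factor HNF1, or to TTGCNNAA, a pattern of sites of the C/EBP factors.
Ces1e, chr8:93229620-93229769, minus strand: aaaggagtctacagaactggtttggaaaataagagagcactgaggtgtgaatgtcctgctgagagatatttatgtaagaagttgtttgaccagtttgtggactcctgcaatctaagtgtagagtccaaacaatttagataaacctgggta
Ces3b, chr8:105083605-105083754, plus strand: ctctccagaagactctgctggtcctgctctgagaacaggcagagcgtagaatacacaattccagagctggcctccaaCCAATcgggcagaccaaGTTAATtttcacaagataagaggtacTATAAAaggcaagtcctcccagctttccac
Ces2a, chr8:104733853-104734002, plus strand: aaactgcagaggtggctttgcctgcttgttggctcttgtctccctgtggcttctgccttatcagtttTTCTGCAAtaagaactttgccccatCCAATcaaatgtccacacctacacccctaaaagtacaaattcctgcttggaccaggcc
Ces2e, chr8:104926110-104926259, plus strand: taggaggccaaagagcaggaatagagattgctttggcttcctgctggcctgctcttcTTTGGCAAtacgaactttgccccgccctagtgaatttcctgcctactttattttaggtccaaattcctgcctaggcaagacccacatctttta
Over windows of 300 bases (250 before to 50 after the start), CCAAT was found in 5 of the 7 promoters and in 37.4% of all 32851 promoters, TTGCNNAA in 3 and in 10.8%, TATAAA in 2 and in 13.6%, and GTTAAT in 1 and in 7.10%. AGGTCA was found in 1, *Ces2a*, and in 16.3% of all promoters, and TGANTCA, found in 7.81%, and CAAAGTCCA, found in 0.475%, in none of the 7. These are matches of letters on both strands in short windows and describe no binding.

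In Ctrl livers the family was dominated by *Ces1c*, with 1414 ± 122 CPM per kb of exon (SD, n = 6 mice). The second highest level per kb was that of *Ces3a* (328 ± 35.2), followed by *Ces1d* (313 ± 69.0), whose ranges overlapped. *Ces3b* (170 ± 39.8), *Ces2a* (139 ± 44.5), *Ces1g* (119 ± 25.1) and *Ces1f* (118 ± 19.2) came next, and each overlapped its neighbor in this order. Below them were *Ces2e* (65.7 ± 9.67) and *Ces1e* (53.1 ± 13.6), again with overlapping ranges, and *Ces2c* was lowest at 9.61 ± 4.11. Every gene was measured in every mouse, and the lowest count of any of the 10 was 165, for *Ces1e* in an ABpIF/+ liver. The 10 genes together held 0.636% to 0.743% of all counts in Ctrl, 0.201% to 0.287% in ABpIF/+ and 0.240% to 0.395% in ABpIF/F livers. The range in Ctrl met neither of the others, and the ABpI groups overlapped. Their summed CPM were 6638 ± 642 in Ctrl (SD, n = 6), 2734 ± 437 in ABpIF/+ (n = 6) and 2896 ± 927 in ABpIF/F livers (n = 3).

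To see what the *Braf* V600E allele was accompanied by in this family, each ABpI group was compared with Ctrl. ABpIF/+ shares the *Icmt* flx/+ genotype of Ctrl, whereas ABpIF/F differs from Ctrl in both *Braf* and *Icmt*. A gene was called changed at an adjusted p under 0.01 in edgeR's quasi-likelihood test and a fold change of at least 2, with p adjusted by Benjamini-Hochberg over all 27179 genes. In ABpIF/+ vs Ctrl 7 of the 10 genes were called, 6 lower (*Ces1d*, *Ces1e*, *Ces1f*, *Ces1g*, *Ces3a* and *Ces3b*) and 1 higher (*Ces2e*). Of all genes 10.0% were called in this comparison, 5.35% lower and 4.69% higher, and of the 9568 genes averaging 5 CPM or more 14.6% were called. In ABpIF/F vs Ctrl again 7 were called, *Ces1d*, *Ces1e*, *Ces1f*, *Ces1g*, *Ces2a* and *Ces3a* lower and *Ces2e* higher, where 6.93% of all genes (2.38% lower and 4.55% higher) and 11.1% of those with at least 5 CPM were called. Between ABpIF/+ and ABpIF/F 0 of the 10 were called by edgeR, where 7.24% of all genes and 8.81% of those with at least 5 CPM were, 2 had an unadjusted p under 0.05, and DESeq2 called 1, *Ces3a*. The values of the 2 ABpI groups did not overlap those of Ctrl for 9 of the 10 genes in ABpIF/+ and for 8 in ABpIF/F livers, against 32.1% and 33.1% of the genes with at least 5 CPM. For 0 of the 10 were ABpIF/+ and ABpIF/F separated, against 34.8% of such genes. The median log2 fold change of the 10 genes was -2.13 in ABpIF/+ and -2.19 in ABpIF/F vs Ctrl, beside 0.03 and -0.06 over the genes with at least 5 CPM. The comparisons share the 6 Ctrl mice and, for the third, all ABpI mice.

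**Figure D1:**
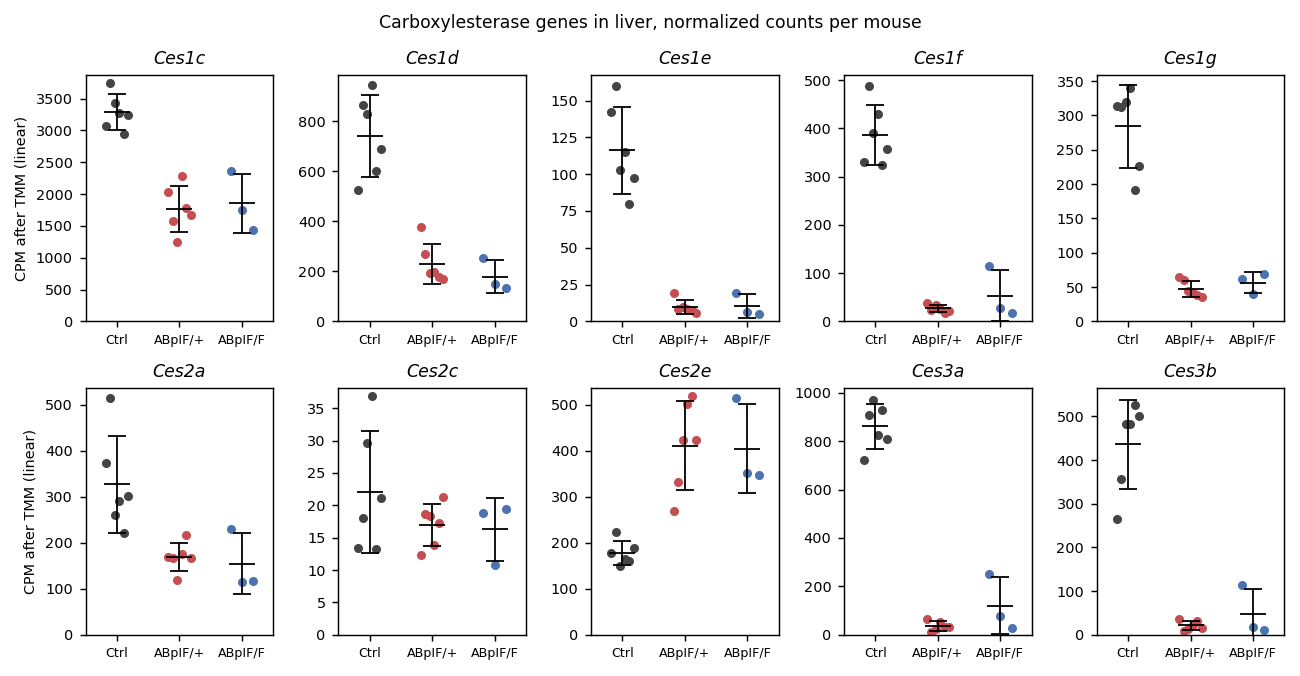
Normalized counts (CPM after TMM, linear axis from 0, scaled per panel) of the 10 carboxylesterase genes in each of 15 livers, with points for mice and black bars for mean ± SD (n = 6 Ctrl, 6 ABpIF/+ and 3 ABpIF/F; bars that would fall below 0 are not drawn below it). Nearly all panels step down from Ctrl to both ABpI groups, *Ces2e* steps up, *Ces2c* overlaps in all groups, and 1 ABpIF/F mouse stands above the other ABpI mice in *Ces1f*, *Ces3a* and *Ces3b*.

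*Ces1d* (chr8:93166068-93197838, minus strand) encodes triacylglycerol hydrolase, which mobilizes stored lipid for VLDL. It had a lowest, median and highest value of 527, 758 and 945 CPM in Ctrl and of 171, 196 and 375 in ABpIF/+ livers, and 253, 150 and 133 CPM in the ABpIF/F mice BG183, BG90 and BG38. All ABpI mice were below all Ctrl mice. It fell by 1.69 ± 0.21 on the log2 scale (SE) in ABpIF/+ (adjusted p = 3.6e-06 by edgeR) and by 2.05 ± 0.28 in ABpIF/F livers (adjusted p = 2.3e-05).

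*Ces1g* (chr8:93302369-93337308, minus strand), also called esterase-x, is a lipid hydrolase whose absence is known to raise hepatic fat secretion. Its values were 192, 313 and 341 CPM (lowest, median, highest) in Ctrl and 35.95, 43.1 and 64.6 in ABpIF/+ livers, and 61.5, 39.3 and 68.9 CPM in BG183, BG90 and BG38. The ABpI groups lay together far below Ctrl. *Ces1g* fell by 2.58 ± 0.19 (log2, SE) in ABpIF/+ (adjusted p = 1.2e-09 by edgeR) and by 2.33 ± 0.24 in ABpIF/F livers (adjusted p = 5.8e-07). These were the smallest p-values of the family.

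*Ces1e* (chr8:93201218-93229619, minus strand) encodes egasyn, the esterase that holds β-glucuronidase in the endoplasmic reticulum. Ctrl livers had 80.0, 109 and 160 CPM (lowest, median, highest), ABpIF/+ livers 5.63, 8.76 and 19.05 CPM, and BG183, BG90 and BG38 had 19.5, 6.57 and 5.40 CPM. The highest ABpI values were those of BG55 and BG183, and both were far below the lowest Ctrl value. *Ces1e* was 11.8-fold lower in ABpIF/+ (log2 fold change -3.56 ± 0.37 SE, adjusted p = 6.8e-06 by edgeR) and 11.1-fold lower in ABpIF/F livers (-3.47 ± 0.50, adjusted p = 2.3e-04). Without BG183 the latter was -4.28 (adjusted p = 1.3e-05), and with BG3 as the only Ctrl mouse it was -3.95 and not called (adjusted p = 0.020).

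*Ces1f* (chr8:93256236-93279747, minus strand), a further triacylglycerol hydrolase of liver, lies between *Ces1e* and *Ces1g*. Its values were 324, 374 and 487 CPM (lowest, median, highest) in Ctrl and 18.5, 24.6 and 38.4 in ABpIF/+ livers. The ABpIF/F mice were unequal, with 115 CPM in BG183 against 28.2 in BG90 and 17.7 in BG38. *Ces1f* was 14.3-fold lower in ABpIF/+ (log2 fold change -3.84 ± 0.41 SE, adjusted p = 6.2e-06 by edgeR) and 7.20-fold lower in ABpIF/F livers (-2.85 ± 0.51, adjusted p = 0.0013). Without BG183 the latter was -4.07 (adjusted p = 9.1e-09), and with adjustment for a score of circadian clock genes, described further on, it was -2.38 and not called (adjusted p = 0.024). With BG3 as the only Ctrl mouse *Ces1f* was at -4.17 in ABpIF/+ and -3.20 in ABpIF/F and was called in neither (adjusted p = 0.011 and 0.072).

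*Ces1c* (chr8:93099015-93131283, minus strand), the plasma esterase, remained the most abundant member in all groups and moved less than its cluster. Ctrl livers had 2948, 3260 and 3751 CPM (lowest, median, highest), ABpIF/+ livers 1241, 1729 and 2285, and BG183, BG90 and BG38 had 2364, 1754 and 1442 CPM. No ABpI mouse reached the lowest Ctrl value. The log2 fold changes were -0.90 ± 0.16 (SE) in ABpIF/+ (adjusted p = 1.6e-04 by edgeR) and -0.83 ± 0.20 in ABpIF/F livers (adjusted p = 0.0054), which passed the p threshold but not the 2-fold limit. Scaling libraries by their totals lowered the log2 fold changes in ABpIF/+ vs Ctrl by a median of 0.18 over genes averaging 5 CPM or more. With this scaling *Ces1c* reached -1.08 in ABpIF/+ and was called. In the fit with TMM but without BG183, *Ces1c* reached -1.04 in ABpIF/F.

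*Ces3a* (chr8:105048601-105058413, plus strand) and *Ces3b* (chr8:105083753-105093929, plus strand) are the mouse relatives of human CES3 and are nearly identical, so part of their reads may be exchanged. An exon of the predicted gene *Gm45724* also overlaps *Ces3a*. In Ctrl livers *Ces3a* had 722, 868 and 972 CPM and *Ces3b* had 265, 483 and 526 CPM (lowest, median, highest). In ABpIF/+ livers *Ces3a* had 12.1, 31.9 and 64.2 CPM and *Ces3b* had 7.54, 19.9 and 35.3 CPM. These were the largest differences of the family, 23.7-fold lower for *Ces3a* (log2 fold change -4.57 ± 0.53 SE, adjusted p = 1.9e-05 by edgeR) and 20.4-fold lower for *Ces3b* (-4.35 ± 0.60, adjusted p = 1.1e-04). In ABpIF/F livers the spread was wide, since BG183, BG90 and BG38 had 252, 78.5 and 29.5 CPM of *Ces3a* and 115, 17.4 and 11.0 CPM of *Ces3b*. All 3 were below every Ctrl mouse. The log2 fold change was -2.84 ± 0.65 for *Ces3a* (adjusted p = 0.0073) and -3.19 ± 0.76 for *Ces3b*, which with an adjusted p of 0.0101 by edgeR was not called. Both calls rested on the threshold. *Ces3a* was not called when any of 11 of the 15 mice was left out (adjusted p = 0.010 to 0.040), that is without each Ctrl mouse, BG88, BG175, BG30, BG90 or BG38, and without BG183 it was called at -3.996 (adjusted p = 4.7e-04). With adjustment for the clock score it was not called (-2.41, adjusted p = 0.087). *Ces3b* was called without BG40 (adjusted p = 0.0082) or BG183 (log2 fold change -4.95, adjusted p = 6.9e-05) and by DESeq2. With BG3 as the only Ctrl mouse *Ces3a* and *Ces3b* were at -4.64 and -4.06 in ABpIF/+ and not called (adjusted p = 0.019 and 0.048), and *Ces3a* was at -2.93 in ABpIF/F (adjusted p = 0.19). Per kb of exon, *Ces3a* exceeded *Ces3b* 2.01 ± 0.45 times in Ctrl, 1.69 ± 0.44 times in ABpIF/+ and 3.06 ± 1.20 times in ABpIF/F livers, with overlapping ranges.

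**Figure D2:**
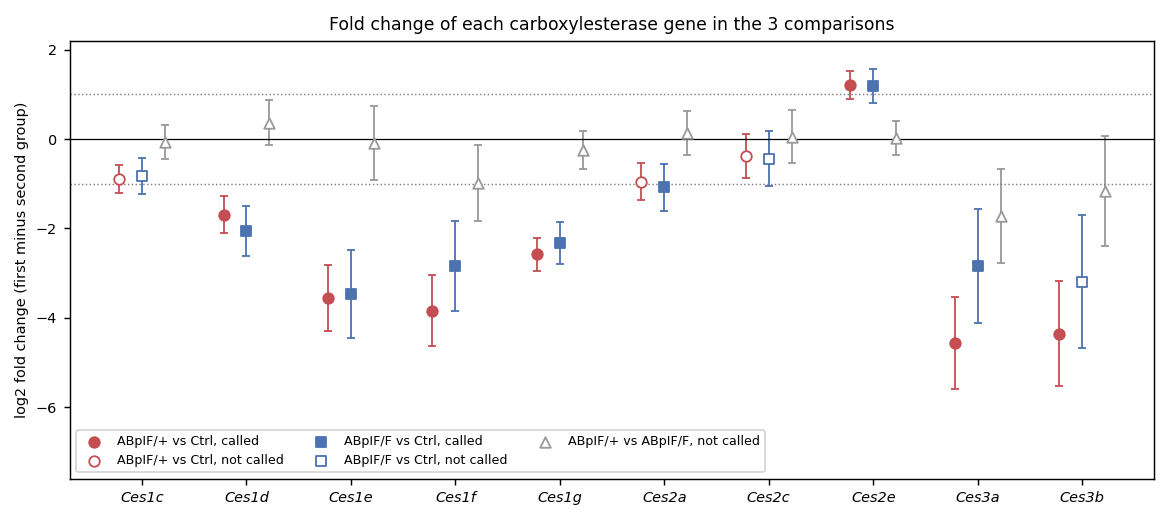
Log2 fold change (y axis, first minus second group) of each gene in the 3 comparisons, with bars for the 95% interval around each symbol, filled symbols for called genes and dotted lines at a 2-fold change. The red and blue symbols of ABpIF/+ and ABpIF/F vs Ctrl lie below 0 except for *Ces2e*, are lowest for *Ces3a* at -4.57 and *Ces3b* at -4.35 in ABpIF/+, and all triangles of ABpIF/+ vs ABpIF/F are open.

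Ces2 enzymes hydrolyze drugs such as irinotecan as well as acylglycerols, and the 3 members that were measured behaved differently. *Ces2e* (chr8:104926260-104934672, plus strand), which acts on triacylglycerols and retinyl esters, had 150, 171 and 223 CPM (lowest, median, highest) in Ctrl and 269, 423 and 519 in ABpIF/+ livers. BG183, BG90 and BG38 had 516, 351 and 346 CPM, so every ABpI mouse was above every Ctrl mouse. *Ces2e* rose by 1.21 ± 0.16 on the log2 scale (SE) in ABpIF/+ (adjusted p = 4.7e-06 by edgeR) and by 1.19 ± 0.19 in ABpIF/F livers (adjusted p = 8.7e-05). Without BG183 the rise in ABpIF/F was 0.97 on this scale (adjusted p = 0.0012), just under the 2-fold limit. Against BG3, the only Ctrl mouse with the strain label of the ABpI mice, it was 0.88 in ABpIF/+ and 0.82 in ABpIF/F and not called (adjusted p = 0.15 and 0.23), in a fit that takes this lone mouse to vary like the other groups.

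*Ces2a* (chr8:104734003-104741634, plus strand), which hydrolyzes di- and triacylglycerols in liver, had 221, 296 and 515 CPM (lowest, median, highest) in Ctrl and 119, 169 and 217 in ABpIF/+ livers, which did not overlap. BG183, BG90 and BG38 had 231, 115 and 118 CPM, and BG183 overlapped the lowest Ctrl mouse. Its log2 fold changes were -0.95 ± 0.21 (SE) in ABpIF/+ (adjusted p = 0.0015 by edgeR), under the 2-fold limit, and -1.08 ± 0.27 in ABpIF/F livers (adjusted p = 0.0063), which was called. These calls changed with the mice included. In ABpIF/+ it was called without malpa454 (-1.01), malpa459 (-1.04) or BG175 (-1.06), and in ABpIF/F it was not called without malpa387 (-1.04, adjusted p = 0.013), BG3 (-0.91, adjusted p = 0.0086), BG90 (-0.91, adjusted p = 0.050) or BG38 (-0.92, adjusted p = 0.066). Per kb of exon the ratio of *Ces2e* to *Ces2a* was 0.50 ± 0.09 in Ctrl, 2.17 ± 0.60 in ABpIF/+ and 2.40 ± 0.39 in ABpIF/F livers (SD). It was below 1 in every Ctrl mouse, with a highest value of 0.633, and above 1 in every ABpI mouse, with lowest values of 1.39 and 1.95.

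*Ces2c* (chr8:104847068-104854483, plus strand), better known from intestine, was the lowest of the 10 in Ctrl. Its values were 13.3, 19.6 and 36.8 CPM (lowest, median, highest) in Ctrl and 12.3, 17.8 and 21.2 in ABpIF/+ livers, and 18.9, 10.7 and 19.4 CPM in BG183, BG90 and BG38. The 3 groups overlapped. Its log2 fold changes were -0.38 in ABpIF/+ (95% interval -0.87 to 0.11, adjusted p = 0.34 by edgeR) and -0.44 in ABpIF/F livers (-1.04 to 0.17, adjusted p = 0.45), so a moderate fall was not detectable and not excluded by these intervals.

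The make-up of the family changed with its total. The summed level of the 10 genes was 2729 ± 264 CPM per kb in Ctrl, 1143 ± 186 in ABpIF/+ and 1205 ± 378 in ABpIF/F livers (SD). *Ces1c* held 51.9% ± 1.43 of this sum in Ctrl, 66.0% ± 3.28 in ABpIF/+ and 67.0% ± 4.27 in ABpIF/F livers. Its share was 49.7% to 53.9% in Ctrl and at least 60.8% in every ABpI mouse. Without *Ces1c* the remaining 9 genes summed to 1315 ± 150 CPM per kb in Ctrl, 384 ± 35.0 in ABpIF/+ and 407 ± 180 in ABpIF/F livers. The 2 Ces3 genes held 18.3% ± 2.77 of the family in Ctrl and 1.88% ± 0.722 in ABpIF/+ livers. In ABpIF/F livers they held 4.58% ± 3.60, with 8.62% in BG183 as the highest value. *Ces2e* went from 2.41% ± 0.303 in Ctrl to 13.6% ± 3.56 in ABpIF/+ and 12.6% ± 1.22 in ABpIF/F livers. The 3 Ces2 genes among the 10 together had 214 ± 52.5 CPM per kb in Ctrl, 231 ± 42.4 in ABpIF/+ and 222 ± 64.7 in ABpIF/F livers. Their sum, which leaves out *Ces2g*, thus overlapped in all groups while *Ces2a* and *Ces2e* exchanged places. In the order of levels per kb *Ces2e* moved from the 8th place in Ctrl to the second in both ABpI groups, and *Ces3a* from the second to the sixth in ABpIF/+ and the fifth in ABpIF/F. In ABpIF/+ the second place was not separated, since *Ces2e* and *Ces1d* overlapped, as did *Ces1d* and *Ces2a* and all neighbors from *Ces1g* down to *Ces1e*. In ABpIF/F livers *Ces2e* lay above *Ces1d* without overlap, and all neighbors from *Ces1d* down overlapped.

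**Figure D3:**
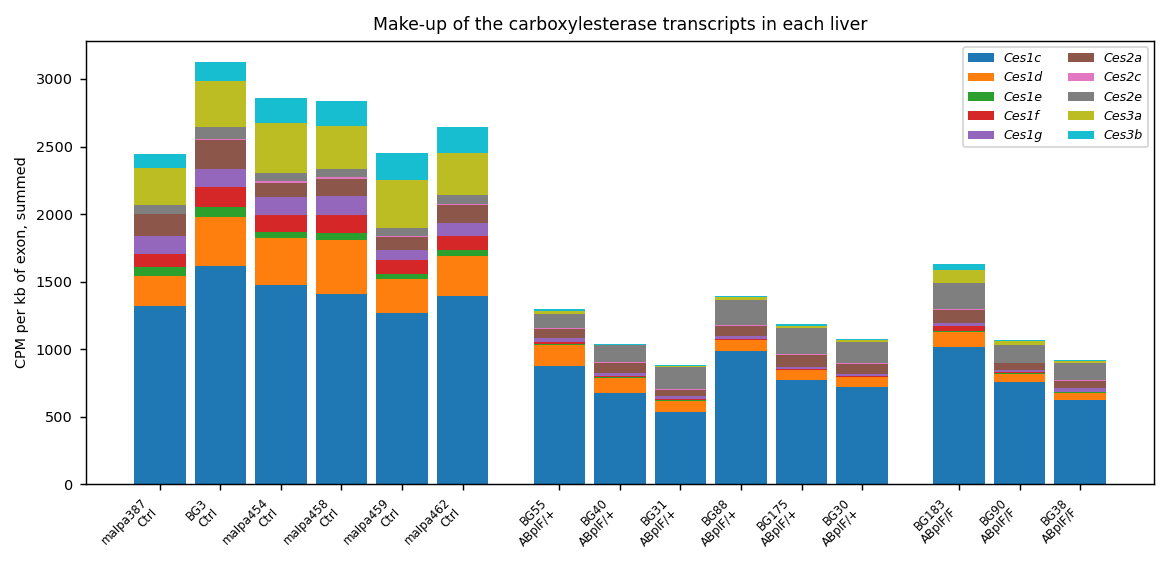
CPM per kb of exon (y axis, from 0) of the 10 genes stacked for each of the 15 livers, grouped as Ctrl, ABpIF/+ and ABpIF/F. The bars reach 2447 to 3127 in Ctrl, 879 to 1393 in ABpIF/+ and 916 to 1632 in ABpIF/F livers, *Ces1c* makes up most of every ABpI bar, and the *Ces2e* segment is the only one that is larger in all ABpI mice.

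To see what the state of *Icmt* was accompanied by on the *Braf* V600E background, ABpIF/+ was compared with ABpIF/F. None of the 10 genes passed the limits. The largest difference was that of *Ces3a*, 1.72 ± 0.54 lower in ABpIF/+ on the log2 scale (SE, adjusted p = 0.041 by edgeR), followed by *Ces3b* (log2 fold change -1.16 ± 0.62, adjusted p = 0.26) and *Ces1f* (-0.99 ± 0.43, adjusted p = 0.15). The other 7 had log2 differences between -0.25 and 0.36. These differences rested on BG183. Without it *Ces3a* was at -0.57, *Ces3b* at 0.59 and *Ces1f* at 0.24, and without BG38 *Ces3a* was at -2.19 and was called (adjusted p = 0.0094). For *Ces1g* the interval of the log2 difference ran from -0.67 to 0.17, for *Ces2e* from -0.36 to 0.41 and for *Ces1c* from -0.45 to 0.31, so for these a difference of 2-fold lay outside the 95% interval.

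BG183 differed from BG90 and BG38 in other measures as well. The summed level of 6 cholangiocyte markers, mostly *Spp1*, was 35.8 to 68.4 CPM in Ctrl and 29.9 to 145 in ABpIF/+ livers. BG183 had 205 CPM, against 778 and 1150 in BG90 and BG38. Its 4 neutrophil markers summed to 2.15 CPM, against 20.2 and 66.3 in the other ABpIF/F mice, and its 6 hepatocyte markers to 198798 CPM, against 166308 and 110393. Each of *Ces1c*, *Ces1d*, *Ces1e*, *Ces1f*, *Ces2a*, *Ces2e*, *Ces3a* and *Ces3b* was highest in BG183 among the ABpIF/F mice, and *Ces1g* and *Ces2c* were highest in BG38. The ABpIF/F mice also differed in age, and the labels do not give the age of BG183. Whether age or these measures have a part in the Ces values was not tested.

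All Ces genes lie on chromosome 8 (GRCm38) in a pair of clusters. The Ces1 cluster runs from 93020214 to 93535830, with 9 genes including *Ces5a*, and the cluster of Ces2, Ces3 and Ces4 from 104734003 to 105150109, with 11. Of the 10 Ces genes that are not among those described above, 8 had a read and 3, *Ces1b*, *Ces2g* and *Ces4a*, exceeded 1 CPM. *Ces1b*, whose coding sequence is 91.1% identical to that of its neighbor *Ces1c*, was called lower in both comparisons with Ctrl. It had 86.3 to 140 CPM in Ctrl and 19.7 to 59.9 in ABpIF/+ livers, and 10.2, 11.7 and 17.3 CPM in BG183, BG90 and BG38. Its log2 fold change was -1.80 ± 0.26 (SE) in ABpIF/+ (adjusted p = 8.2e-05 by edgeR) and -3.05 ± 0.37 in ABpIF/F livers (adjusted p = 2.8e-05). *Ces1b* was lower in ABpIF/F than in ABpIF/+ livers with no overlap between the groups (log2 difference 1.25 ± 0.34). With an adjusted p of 0.016 by edgeR this was not called. The ranges of every member overlapped between these groups, and the members' log2 differences ran in both directions. *Ces2g*, which lies beyond *Ces2e* in the array, had 60.6 ± 5.94 CPM in Ctrl, 87.8 ± 9.24 in ABpIF/+ and 117 ± 19.2 in ABpIF/F livers (SD). Its log2 fold changes of 0.54 and 0.95 passed the p threshold (adjusted p = 7.2e-04 and 1.6e-05 by edgeR) but not the 2-fold limit. *Ces5a* and *Ces2f* had 0 counts in all 15 mice. Along the Ces1 cluster the genes from *Ces1b* to *Ces1g* were all lower in ABpI livers, and along the second cluster lower, higher and strongly lower genes followed each other.

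**Figure D4:**
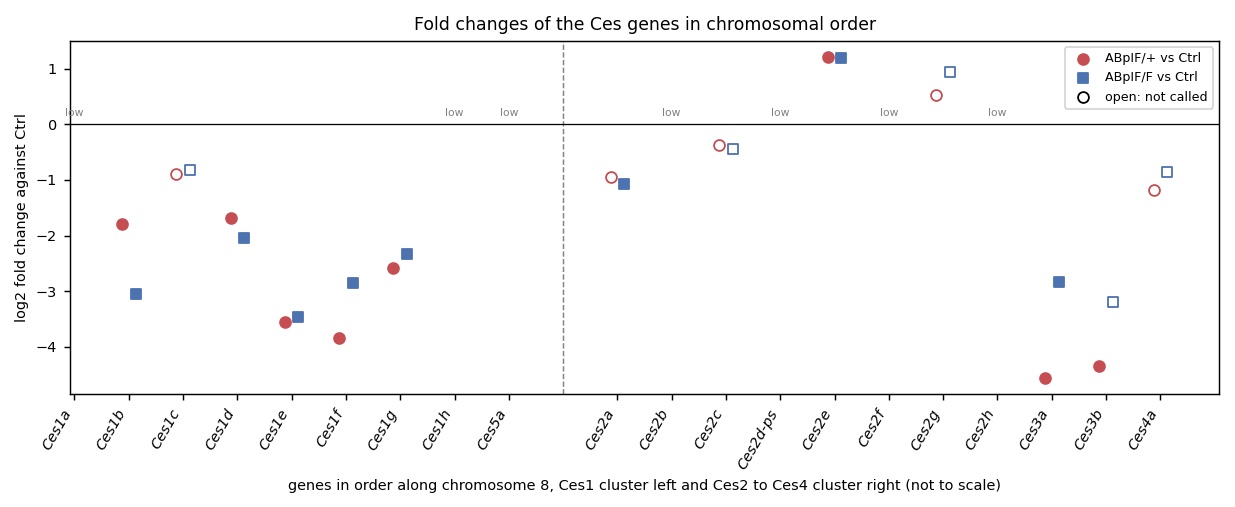
Log2 fold change against Ctrl (y axis) of the Ces genes in their order along chromosome 8, with the Ces1 cluster left and the Ces2 to Ces4 cluster right of the dashed line, filled symbols for called genes and "low" for genes whose mean was under 1 CPM in every group. *Ces1b* to *Ces1g* lie below 0, *Ces2e* and *Ces2g* above 0, and *Ces3a* and *Ces3b* are lowest in ABpIF/+.

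Genes around the clusters were counted to place these values. Within 500 kb of the Ces1 cluster there were 8 other protein-coding genes in the table, of which 2 averaged 5 CPM or more. In ABpIF/+ vs Ctrl 1 of the 8 was called higher, *Nudt21*, and 2 lower, *Mmp2* and *Lpcat2*, and in ABpIF/F vs Ctrl 0 were called. Around the second cluster 40 were in the table, 18 of them with at least 5 CPM, and 3 were called higher and 3 lower in ABpIF/+ and 2 higher and 0 lower in ABpIF/F vs Ctrl. Among these were *Pdp2*, which encodes a pyruvate dehydrogenase phosphatase (log2 fold change -1.45, adjusted p = 0.0011 by edgeR in ABpIF/+), and the heat shock factor gene *Hsf4* (1.30, adjusted p = 8.5e-08). Of all genes 10.0% were called in ABpIF/+ and 6.93% in ABpIF/F vs Ctrl. Of the genes averaging 5 CPM or more, 14.6% and 11.1% were called.

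Other ester and lipid hydrolases are encoded outside these clusters. Of 19 such genes 8 were called lower and 1 higher in ABpIF/+ vs Ctrl, where their median was -0.81 on the log2 scale, and 7 lower and 1 higher in ABpIF/F vs Ctrl, where it was -0.55. *Cel*, which had 0 counts in Ctrl, is in these counts, and the medians over the other 18 were -0.86 and -0.57. Of the genes averaging 5 CPM or more, 14.6% were called in ABpIF/+ and 11.1% in ABpIF/F vs Ctrl. *Pon1*, the paraoxonase of high-density lipoprotein, fell from 926 CPM on average in Ctrl to 223 in ABpIF/+ and 285 in ABpIF/F livers (log2 fold changes -2.06 ± 0.20 and -1.70 ± 0.25 SE, adjusted p = 3.8e-08 and 3.4e-05 by edgeR). *Mgll*, which encodes monoacylglycerol lipase, fell by 2.88 ± 0.30 and 2.85 ± 0.39 on the log2 scale, and *Lipc*, the hepatic lipase gene, went from 203 CPM on average in Ctrl to 30.6 in ABpIF/+ and 43.8 in ABpIF/F livers, 6.62-fold and 4.64-fold lower (adjusted p = 9.1e-08 and 4.3e-05). *Abhd6*, a further monoacylglycerol hydrolase gene, fell by 2.04 ± 0.15 and 2.05 ± 0.20. *Abhd5*, the coactivator of adipose triglyceride lipase, was the gene that rose, by 1.35 ± 0.14 and 1.44 ± 0.17. *Pnpla2*, which encodes adipose triglyceride lipase itself, was not called against Ctrl (log2 fold changes 0.89 and -0.55) but was 1.45 ± 0.18 higher in ABpIF/+ than in ABpIF/F livers (adjusted p = 1.1e-05). It was the only 1 of the 19 called in that comparison, where 8.81% of the genes averaging 5 CPM or more were.

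**Figure D5:**
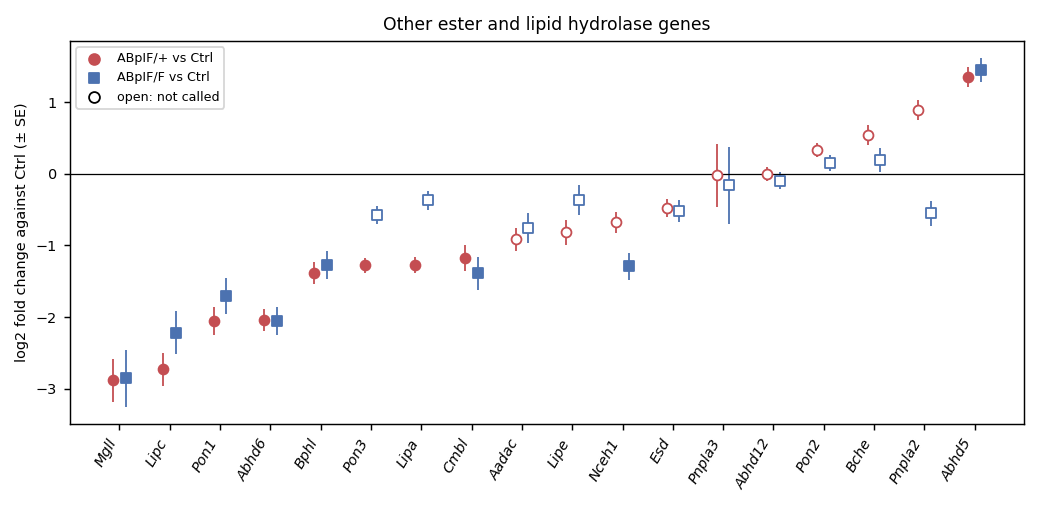
Log2 fold change against Ctrl (y axis, bars for 1 SE) of 18 other ester and lipid hydrolase genes with a read in every group, ordered by their value in ABpIF/+ vs Ctrl, with filled symbols for called genes. *Mgll*, *Lipc*, *Pon1*, *Abhd6*, *Bphl* and *Cmbl* are filled below 0 in both comparisons, and *Abhd5* is filled above 0 in both.

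Genes of triacylglycerol synthesis and VLDL assembly were counted as well, and the median of 12 such genes was -0.17 on the log2 scale in ABpIF/+ and -0.68 in ABpIF/F vs Ctrl. Of the 12 genes 2 were called lower in ABpIF/+ vs Ctrl, the lipid droplet genes *Plin2* (log2 fold change -2.06 ± 0.25 SE, adjusted p = 4.7e-06 by edgeR) and *Fitm1* (-1.99 ± 0.43, adjusted p = 0.0017), and 3 in ABpIF/F vs Ctrl, *Fitm1* (-2.65 ± 0.58), *Fitm2* (-1.03 ± 0.18) and *Plin5* (-1.29 ± 0.27), while 0 were called higher. Between ABpIF/+ and ABpIF/F, *Plin5* was called higher (1.73 ± 0.28) and *Plin2* lower (-1.33 ± 0.28). Of the genes averaging 5 CPM or more, 14.6% were called in ABpIF/+ vs Ctrl and 11.1% in ABpIF/F vs Ctrl. Between ABpIF/+ and ABpIF/F 8.81% were. Counts in lists as short as those given here were not tested against these shares. *Apob*, which encodes the structural protein of VLDL, had log2 fold changes of -0.11 and 0.02, and *Mttp*, which loads it with lipid, of -0.22 and -0.43, and neither was called. Among 11 transcription factor genes with known action on Ces promoters 0 were called in ABpIF/+ vs Ctrl. In ABpIF/F vs Ctrl 2 were called lower, *Nr1i3* (CAR, -1.64 ± 0.25, adjusted p = 6.5e-05) and *Ppara* (-1.66 ± 0.28, adjusted p = 2.1e-04), and both were called higher in ABpIF/+ than in ABpIF/F livers. Of 4 genes linked to retention in the endoplasmic reticulum, that of a retained enzyme and those of KDEL receptors, only the former was called. *Gusb*, the β-glucuronidase held there by the product of *Ces1e*, was 1.03 ± 0.11 higher on the log2 scale in ABpIF/+ than in Ctrl livers (adjusted p = 1.8e-07) and 0.47 ± 0.13 higher in ABpIF/F livers, which was not called (adjusted p = 0.012). The receptor genes *Kdelr1*, *Kdelr2* and *Kdelr3* were not called.

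The livers also differed in circadian clock genes, many of which cycle in liver. The first principal component of 14 clock genes, which held 85.8% of their variance, was between 0.34 and 0.71 in 5 Ctrl mice and between 0.49 and 0.67 in the ABpIF/+ mice, and was -1.66 in malpa387 and -1.03, -2.12 and -1.43 in BG183, BG90 and BG38. With this score as a covariate 7 genes were again called in ABpIF/+ vs Ctrl, and 3 in place of 7 in ABpIF/F vs Ctrl. There the log2 fold changes became -2.38 for *Ces1f* (adjusted p = 0.024), -2.41 for *Ces3a* (0.087), -1.08 for *Ces2a* (0.086) and 1.25 for *Ces2e* (0.014). In the ABpIF/F comparison the clock state and the genotype can be told apart only through malpa387.

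Markers of other liver cells moved with the genotypes as well, and their part in the Ces values was not tested. Over all genes, 10.0% and 6.93% were called in ABpIF/+ and ABpIF/F vs Ctrl. Of 6 stellate cell and fibroblast markers 5 were called lower in ABpIF/+ vs Ctrl, with a summed level of 57.4 to 122 CPM against 202 to 265 in Ctrl and 226 to 358 in ABpIF/F livers. Of 6 macrophage and Kupffer cell markers 4 were called lower in ABpIF/+, at 85.7 to 133 CPM against 197 to 277 in Ctrl and 161 to 342 in ABpIF/F livers. Of 6 cholangiocyte markers 4 were called higher and 0 lower in ABpIF/F vs Ctrl, and 1 higher and 1 lower in ABpIF/+. Of 6 endothelial markers 2 were called lower in ABpIF/+ and 1 higher in ABpIF/F, of 7 T, B and NK cell markers 2 lower in ABpIF/+ and 1 higher in ABpIF/F, of 4 neutrophil markers 3 higher in ABpIF/F, and of 3 red blood cell markers 1 higher in ABpIF/+. Enterocytes express several of these carboxylesterases, and of 5 enterocyte markers *Alpi* and *Sis* were at 0 in every mouse, while *Fabp2*, which liver also expresses, was called lower in both comparisons. Of the 4 pancreatic acinar and the 3 adipocyte markers 0 were called against Ctrl, at summed levels of at most 1.99 and 0.141 CPM.

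The members and other genes were compared by their pattern over the 15 mice, as the root mean square difference of log2 CPM after each gene was centered on its mean. This is a description over mice that share a group structure, and the labels do not say whether their libraries were prepared together. Among the members, *Ces1c* and *Ces2a* were closest (0.29), followed by *Ces1e* and *Ces1f* (0.38), *Ces3a* and *Ces3b* (0.47) and *Ces1d* and *Ces1g* (0.50), and *Ces2e* and *Ces3a* were farthest apart (2.83). Among 9529 genes outside the family with at least 5 CPM, the nearest to both *Ces3a* and *Ces3b* was *Cyp2f2*, a cytochrome P450 gene, at 0.61 and 0.59. For *Ces1e* it was *Acaa1b*, which encodes a peroxisomal thiolase (0.39), for *Ces1f* *Nudt7*, a peroxisomal coenzyme A hydrolase gene (0.50), and for *Ces1g* *Cyp7b1*, an oxysterol hydroxylase gene (0.34). For *Ces1d* it was *Fmo1*, a flavin monooxygenase gene (0.25), for *Ces2a* *Aadac*, an arylacetamide deacetylase gene (0.24), for *Ces1c* *Mto1*, which acts in mitochondrial tRNA modification (0.14), for *Ces2e* *Hexa*, a lysosomal hexosaminidase gene (0.23), and for *Ces2c* *Bahcc1* (0.26).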

How the data were processed

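Liver RNA was sequenced from stranded mRNA libraries with 150-base paired ends. The authors, whose methods mention concatenated reads, aligned them with HISAT2 to mm10 and counted them per gene with featureCounts 2.0.8. The deposited values are raw counts, without normalization. The annotation and the strand setting of the counting are not given in the sources used here. Counts of all 15 mice were read from 1 deposited table and symbols from the other. The 10 columns compared between both held the same counts, and 5 columns of the second were not used.

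Tests were run with edgeR 4.0.16 in R 4.3.3 (TMM, robust dispersions, quasi-likelihood F-test in its legacy form, all 3 groups and all 27179 genes in 1 fit, Benjamini-Hochberg adjustment per comparison), and with DESeq2 1.42.0 as an alternative. Calls required an adjusted p under 0.01 together with a change of 2-fold or more. The SE of a log2 fold change was taken as its size over the square root of F. The 95% intervals are 1.96 SE to each side, an approximation that is somewhat narrower than the F-test would give. CPM are after TMM. Log2 CPM used a prior count of 2. Exon lengths, positions and coding sequences were taken from GENCODE M21. The script was tested on simulated data. The members, lists and rules for named genes were chosen with earlier results of these data known. All 10 members are named. Of a list at most 6 called genes are named, of neighboring genes called ones, and for each member the gene nearest in pattern, while Apob, Mttp, Cel, Alpi, Sis and the Kdelr genes were named after their values were seen. Alternatives were RLE and upper quartile factors, library totals, DESeq2, filterByExpr, the edgeR 4 form, no robust estimation, other thresholds, only the groups compared, the second table, each mouse left out, only mice with a shared strain label, and a clock gene score as covariate.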

Additional observations from a re-analysis of the deposited data

Results flagged for a closer look

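In the ABpIF/+ group, *Ces1e* was flagged in 1 liver for its distance from the others. BG55 had 19.05 CPM, whereas the other 5 ABpIF/+ mice had 5.63 to 9.52 CPM, so that its gap to the nearest mouse exceeded Dixon's 95% critical value for 6 samples. It was the only flag in 22 groups examined, that is the 10 genes and their sum in Ctrl and ABpIF/+, and chance flags about 1 in 20 such groups. The ABpIF/F group, with 3 mice, was not examined in this way. BG55 was also the highest ABpIF/+ mouse for *Ces1d*, *Ces1f*, *Ces1g*, *Ces3a* and *Ces3b* and the lowest for *Ces2e*. Without it the log2 fold change of *Ces1e* in ABpIF/+ vs Ctrl was -3.85 in place of -3.56.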

How the results depend on the processing

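In ABpIF/+ vs Ctrl 7 genes were called, and in the fits that left out each mouse in turn 7 to 8 were. In ABpIF/F vs Ctrl 7 were called, and 5 to 8 with a mouse left out, and in ABpIF/+ vs ABpIF/F 0, and 0 to 1 with a mouse left out. With only the mice that share a strain label, which leaves 1 Ctrl mouse, 4 and 3 genes were called against Ctrl. With the clock score as a covariate 3 were called in ABpIF/F vs Ctrl. In ABpIF/+ vs ABpIF/F 1 gene, *Ces3a*, was called without robust dispersions, by DESeq2 or at an adjusted p under 0.05. The cause of these differences was not tested. Of 390 log2 fold changes of single genes under the alternatives that keep all mice or drop a strain label, 352 kept direction and call, 17 lost and 12 gained the call and 9 turned. Among these alternatives is the second table, whose compared columns held the same counts, so its values could not differ. The other thresholds reuse the main fit, so there only the call could change. None of the values that turned was called. With library totals *Ces2a*, *Ces2c* and *Ces2e* came to -0.041, -0.158 and -0.155 in ABpIF/+ vs ABpIF/F, with upper quartile factors *Ces2c* and *Ces2e* to -0.018 and -0.048, and with the clock score *Ces1d*, *Ces2c* and *Ces2e* to -0.315, -0.883 and -0.055, and *Ces2c* to 0.33 in ABpIF/F vs Ctrl. With a mouse left out 412 of 450 kept direction and call, and those that turned were all in ABpIF/+ vs ABpIF/F, with ranges of -0.22 to 0.14 for *Ces1c*, -0.40 to 0.72 for *Ces1e*, -1.41 to 0.24 for *Ces1f*, -0.043 to 0.538 for *Ces2a*, -0.17 to 0.20 for *Ces2c*, -0.075 to 0.239 for *Ces2e* and -1.63 to 0.59 for *Ces3b*. No paired analysis was possible because the mice are separate animals and their columns carry no replicate numbers. With 3 ABpIF/F mice, differences that rest on BG183 cannot be settled at this group size.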
